A study of Mus musculus with 21 samples.

Results

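Spred1, Spred2, Spred3, Spry1, Spry2, Spry4, Dusp4 and Dusp6 encode proteins that restrain signaling from growth factor receptors to the kinase ERK. These 8 genes, of 40853 in the count table, were taken by symbol, and the set was chosen from measured values: Spred1, and the comparisons between the groups, were known before the set was made. Their levels and the differences between groups are therefore given as a description, without a test. RNA was sequenced from the medial belly of the gastrocnemius, a calf muscle made mostly of fast fibres, of 21 female C57BL/6NJ mice, with 1 library per mouse and 7 mice in each group. Training began at 10 weeks of age. Mice of the Active group ran on a treadmill 5 days a week for 6 weeks, in sessions of up to 40 min that opened with a slow warm-up and went on at about 70% of maximal speed. Mice of the Activity Reduction group ran in the same way for 4 weeks and then stayed inactive for 2 weeks. Mice of the Inactive group were kept without training for 6 weeks. The muscle was taken 48 to 72 h after a last maximal running test, which the mice of each group ran, the Inactive group included. All mice were fasted for some hours before collection. No gene was altered, and the males of the study were not sequenced here.

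Growth factors such as FGF, VEGF, EGF and IGF1 bind receptor tyrosine kinases, which recruit adaptors and exchange factors that load Ras with GTP. Ras then activates the Raf kinases, Raf activates MEK1 and MEK2, and these phosphorylate ERK, which changes transcription. Several brakes act along this route, and many of them are themselves induced by ERK. In skeletal muscle the pathway is known for its part in the response of satellite cells, vessels and fibres to growth factors, and Spry1 is known for the return of satellite cells to quiescence. Spred proteins bind neurofibromin, the Ras GTPase-activating protein encoded by Nf1, and bring it to the membrane, where Ras is switched off. Sprouty proteins act near the receptor and at the level of Ras and Raf. Dusp6 is a phosphatase of the cytoplasm that removes phosphate from ERK, and Dusp4 is a nuclear phosphatase that acts on ERK and on related kinases.

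Coordinates are given on GRCm39 with the GENCODE vM39 gene models, and the reads were counted over exons. Spred1 (ENSMUSG00000027351.16) spans chr2:116951524-117018277 on the plus strand with 9 exon blocks. Spred2 (ENSMUSG00000045671.20) spans chr11:19874355-19974442 on the plus strand with 10 exon blocks, and Spred3 (ENSMUSG00000037239.10) spans chr7:28857984-28869836 on the minus strand with 8 exon blocks. Spry1 (ENSMUSG00000037211.14) is a compact gene at chr3:37693897-37698755 on the plus strand with 2 exon blocks, and Spry2 (ENSMUSG00000022114.7) lies at chr14:106128766-106136446 on the minus strand. Dusp4 (ENSMUSG00000031530.8) lies at chr8:35274442-35287048 and Dusp6 (ENSMUSG00000019960.10) at chr10:99086564-99103361, both on the plus strand. Spry4 (ENSMUSG00000024427.9) has 5 exon blocks. All 8 are protein-coding.

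The promoters of 6 of the 8 genes were taken from RefSeq's table for GRCm38.p6. Each holds 300 bases, from 250 before to 50 after the start site, and each was matched at a single place in GRCm39. Spry4 was left out of the search, and no promoter of this length was found for Dusp4. Those of Spred1, Spred2 and Spry2 are shown as examples of the 4 that hold letters of the core bound by ETS factors (Dusp6 is the other), a family that includes direct targets of ERK such as ELK1 and ETV5. The search covered, on both strands, the ETS core with its flanks as CCGGAA and as CGGAAG. It also covered the AP-1 site, spelled TGANTCA here, the palindrome of the cyclic AMP response element, which reads TGACGTCA in full, and the CArG box of SRF. The form CGGAAG, which overlaps the other core CCGGAA by 5 letters, was added after the sequences had been seen. Spred1, Spred2 and Dusp6 matched only by this added form, and Spry2 only by CCGGAA. The share of all promoters with either form was not counted, so the 4 of 6 has no share to stand beside. Capitals mark each match, and CTTCCG is the reverse complement of the core CGGAAG. The Spred1 promoter lies at chr2:116951302-116951601 on the plus strand, that of Spred2 at chr11:19874192-19874491 on the plus strand, and that of Spry2 at chr14:106134204-106134503 on the minus strand.
Spred1: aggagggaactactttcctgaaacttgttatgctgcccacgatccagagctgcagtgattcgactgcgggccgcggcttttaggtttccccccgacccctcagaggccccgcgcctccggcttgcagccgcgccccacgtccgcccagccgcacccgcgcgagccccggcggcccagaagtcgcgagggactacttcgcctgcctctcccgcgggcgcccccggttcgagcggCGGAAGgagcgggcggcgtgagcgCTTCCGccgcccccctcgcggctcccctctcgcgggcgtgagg
Spred2: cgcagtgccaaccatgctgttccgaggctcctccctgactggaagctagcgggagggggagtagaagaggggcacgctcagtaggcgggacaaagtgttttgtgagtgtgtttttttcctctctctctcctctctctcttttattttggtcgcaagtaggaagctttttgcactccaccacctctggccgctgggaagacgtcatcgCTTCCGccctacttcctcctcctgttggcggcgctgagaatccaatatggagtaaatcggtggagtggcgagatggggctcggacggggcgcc
Spry2: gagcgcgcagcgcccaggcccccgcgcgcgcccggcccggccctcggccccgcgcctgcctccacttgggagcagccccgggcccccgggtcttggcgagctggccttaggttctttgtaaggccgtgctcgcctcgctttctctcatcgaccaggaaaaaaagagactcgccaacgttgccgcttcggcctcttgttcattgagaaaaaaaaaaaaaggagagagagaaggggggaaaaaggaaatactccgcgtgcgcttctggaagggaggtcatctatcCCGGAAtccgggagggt
The Spred1 sequence holds CGGAAG as printed at 17 bases before the start site. Its reverse complement begins at position 8, counted with the start site as the first position. Spred2 holds the reverse complement 43 bases before the start site, and Dusp6 holds it 62 bases before. Spry2 holds CCGGAA from position 34 by the same count. Of 32851 promoters of the same length in the table, 14.9% held CCGGAA and 16.9% held CGGAAG. AP-1 was present in 7.81%, the cyclic AMP response element in 1.79% and the CArG box in 1.63% of them, and in none of the 6 windows of these genes. The Spred1 window was also the richest of the 6 in G and C, with 72.3% and 40 CpG pairs, against a median of 52.7% over all promoters. Spry1 had 64.3% and Spred3, the lowest, 55.0%. The start sites used for Spred3, Spry2 and Dusp6 lie 1764, 2193 and 12529 bases from the start of the GENCODE gene, so these windows belong to inner starts. The matches are a description of the letters and were not tested for binding.

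All 8 genes were detected in every library and passed edgeR's filter on low counts. Per kilobase of exon, Spry1 was the most abundant, with 155 normalized counts per kb ± 15.9 (SD, n = 21), followed by Dusp6 with 124 ± 30.5 and Spry2 with 85.2 ± 7.18. Spred2 had 54.5 ± 6.80 and Spred1 50.4 ± 8.53 normalized counts per kb. Spry4 (27.2 ± 7.11), Dusp4 (18.6 ± 7.19) and Spred3 (11.9 ± 2.29) were the lowest. Normalized counts here are raw counts divided by DESeq2 size factors. The exon lengths are those of GENCODE vM39, and the annotation used for counting is not given, so the order per kb depends on these lengths. Without division by length, Spry2 (mean 438) lay above Dusp6 (422), Spred1 (391) above Spred2 (332) and Spred3 (78.8) above Dusp4 (53.7). Within single libraries, Spry2 was above Spred2 and Spred1 above Spry4 in 21 of 21. Between mice, Spry2 (68.7 to 100 per kb) and Spred2 (42.0 to 67.2) did not overlap. The ranges of Spred1 (37.5 to 65.4) and Spry4 (16.9 to 45.9) did overlap. Spry1 exceeded Dusp6 in 18 of 21 libraries, Dusp6 exceeded Spry2 in 19, and Spry4 exceeded Dusp4 in 17. The neighbours Spred2 and Spred1 kept that order in 16 of 21 libraries and Dusp4 and Spred3 in 15, so the levels of these pairs did not separate. In the Active group the order of the first pair was turned, with Spred1 at 59.4 ± 6.23 and Spred2 at 57.9 ± 7.08 normalized counts per kb (n = 7).

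The genes also differed in how much they varied between mice of the same group. Spry1 and Spry2 were the steadiest, with a within-group SD of 8.71% and 8.73% of the mean. For Spred1 and Spred2 it was 11.3% and 12.3%. Spred3 (19.8%), Spry4 (21.9%) and Dusp6 (25.6%) varied more, and Dusp4 varied the most, with 39.9%. Dusp4 and Spred3 were also counted least, with raw counts from 23 to 119 and from 45 to 116 per library.

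Reads can be shared with other annotated genes at some of these loci. Exons of Gm42922 on the other strand cover 19.0% of the Spry1 exons, Gm56965 covers 20.2% of those of Dusp6, and Gm62623 covers 10.96% of those of Spry2. Ggn and Gm73445 cover 3.06% and 3.20% of the Spred3 exons, and Gm34921 covers 2.77% of those of Dusp6. Whether the counting used strand is not given in the sources used here, so reads of a gene and its antisense partner cannot be told apart. Ggn held 3 to 26 raw counts per library and Gm34921 held 0 to 4. Gm42922, Gm56965, Gm62623, Gm73445 and Gm14612 are not among the counted genes by these symbols. The gene Gm14612 resembles 18.6% of the Spred2 transcript at up to 96.0% identity. A short stretch of Spred1, 2.66% of its transcript, resembles Vps35, which held 2882 to 4878 raw counts per library. The values of these genes are uncertain to that degree.

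Depth and tissue makeup moved with the groups. Libraries held between 38482455 and 59785132 counts on genes, and each Active library held fewer than each Inactive library. Transcripts of liver (24 genes, among them Alb) divided the libraries into 8 with more of them, with a summed level of 808 to 2428 CPM (counts scaled to a fixed library total), and 13 with fewer, with 171 to 369 CPM. The 8 were Active replicates 1 to 5, Activity Reduction replicates 1 and 2 and Inactive replicate 1. They are also the first 8 in the order of the library numbers in the labels, so the division and that order cannot be told apart. Fast fibre markers were high throughout, at 144026 to 177063 CPM summed over 7 genes. Fibroblast markers summed to 157 to 309.4 CPM for Inactive, 269 to 439 for Active and 203 to 270 for Activity Reduction mice. Their log2 differences were above 0 for 7 of 7 genes in Active against Inactive (4 at an unadjusted p under 0.05) and below 0 for 7 of 7 in Activity Reduction against Active (all 7 at an unadjusted p under 0.05), with medians of 0.35 and −0.45. Over all genes, 10.9% and 13.3% had such a p. With liver division in the model, 1 and 5 of the 7 fibroblast genes had one. Macrophage markers (7 genes) had medians of 0.41 and −0.45 in these comparisons, and endothelial markers (9 genes) had medians of 0.04 and −0.07. Slow fibre markers (4 genes) summed to 929 to 1266 CPM for Inactive, 462 to 1167 for Active and 253 to 999.5 for Activity Reduction mice. Their median log2 difference was −0.58 for Activity Reduction against Inactive (2 of 4 at an unadjusted p under 0.05, beside 7.73% of all genes) and −0.39 for Activity Reduction against Active (0 of 4), and in the latter it was −0.61 (4 of 4) with liver division in the model. In bulk RNA, a change in the number of cells of a type and a change in RNA per cell cannot be told apart, and the part of cell makeup in the values that follow was not tested.

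Spred1 stood out in the Active group. Its normalized count was 508, 488, 503, 455, 477, 427 and 372 in Active replicates 1 to 7. In the Inactive group it was 389.8, 399.7, 344, 314.6, 359, 317.99 and 402, whereas the Activity Reduction mice had 424, 336, 357, 333, 316.99, 291 and 398. Thus 6 of the 7 Active libraries lay above each Inactive library and 6 of 7 above each Activity Reduction library, and Active replicate 7 lay within the range of both. Means were 361 ± 37.2 for Inactive, 462 ± 48.4 for Active and 351 ± 46.3 for Activity Reduction mice (SD, n = 7 each). The Active mean was 27.8% above the Inactive mean, with a log2 fold change of 0.36 (SE 0.0883), and the Activity Reduction mean was 24.0% below the Active mean (log2 fold change −0.40, SE 0.0886). Activity Reduction and Inactive differed by −0.04 on the log2 scale (SE 0.0885), less than the spread between mice. Both larger differences use the same Active libraries, so they are not separate observations.

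**Figure D1:**
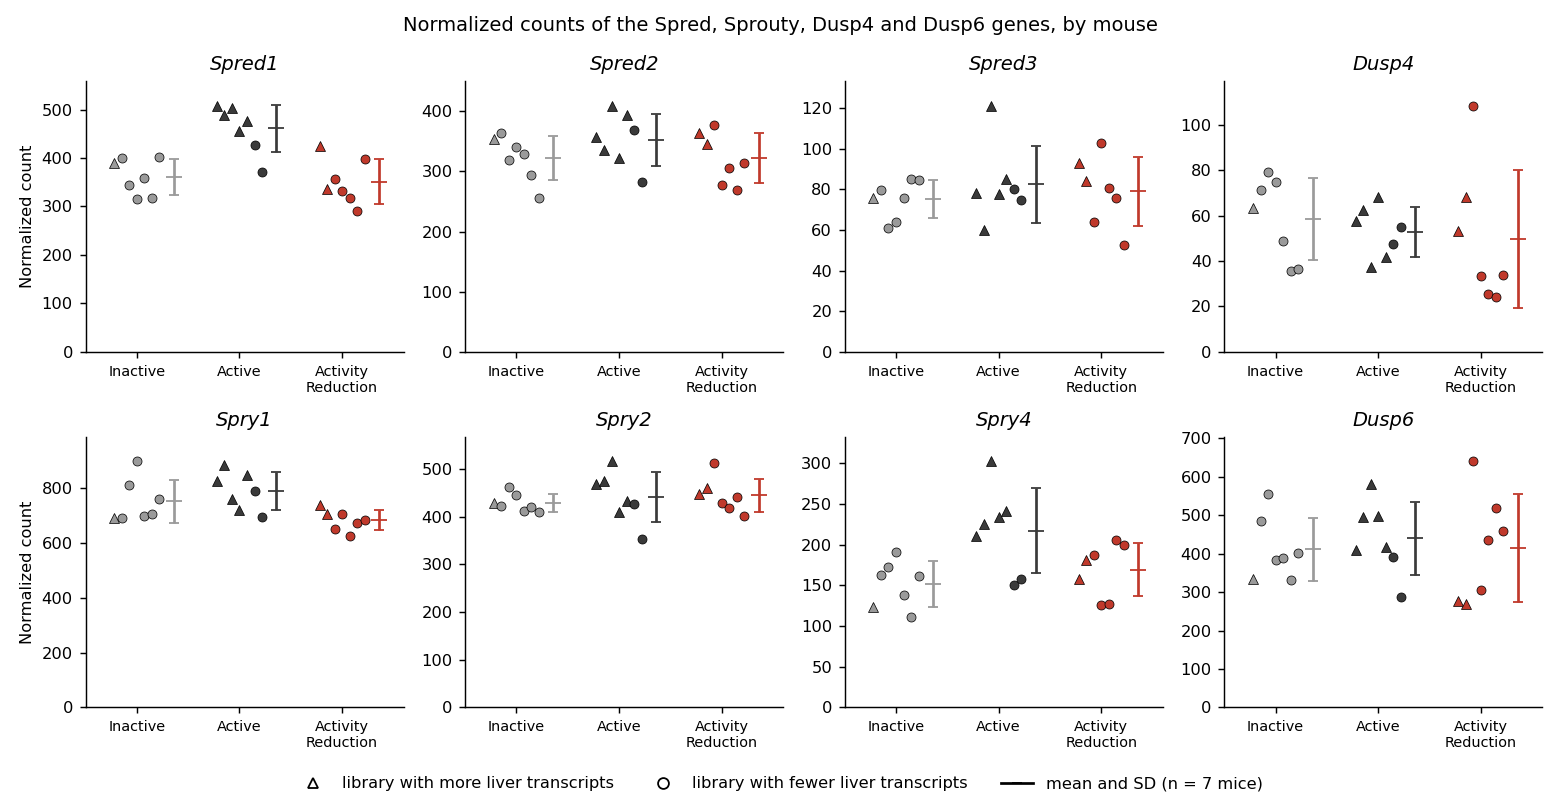
Normalized counts of the 8 genes in each of the 21 libraries (vertical axes, starting at 0), by group, with triangles for libraries with more liver transcripts, circles for those with fewer, and bars for the mean and SD of 7 mice. Spred1 and Spry4 sit highest in Active replicates 1 to 5, which are the triangles of that group, and Spry1 sits lowest in the Activity Reduction group, below the Active median in all 7 mice.

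The libraries with more liver transcripts account for 5 of the 7 Active mice, so the Spred1 values are also given within that division. Among the libraries with more, Spred1 averaged 486 ± 21.5 in 5 Active mice, against 389.8 in the single Inactive mouse and 336 and 424 in the Activity Reduction mice. Among the libraries with fewer, the 2 Active mice had 427 and 372, against 314.6 to 402 in 6 Inactive mice and 291 to 398 in 5 Activity Reduction mice. Fitted on those 13 libraries alone, the log2 fold change was 0.17 (SE 0.130) for Active against Inactive and −0.24 (SE 0.133) for Activity Reduction against Active. With the division as a covariate over all 21 libraries it was 0.24 (SE 0.0899) and −0.31 (SE 0.0852). The direction held in each of these fits and the size was smaller. Leaving out single libraries gave 0.33 to 0.41 and −0.45 to −0.36. The part of the liver transcripts in the result was not tested.

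**Figure D2:**
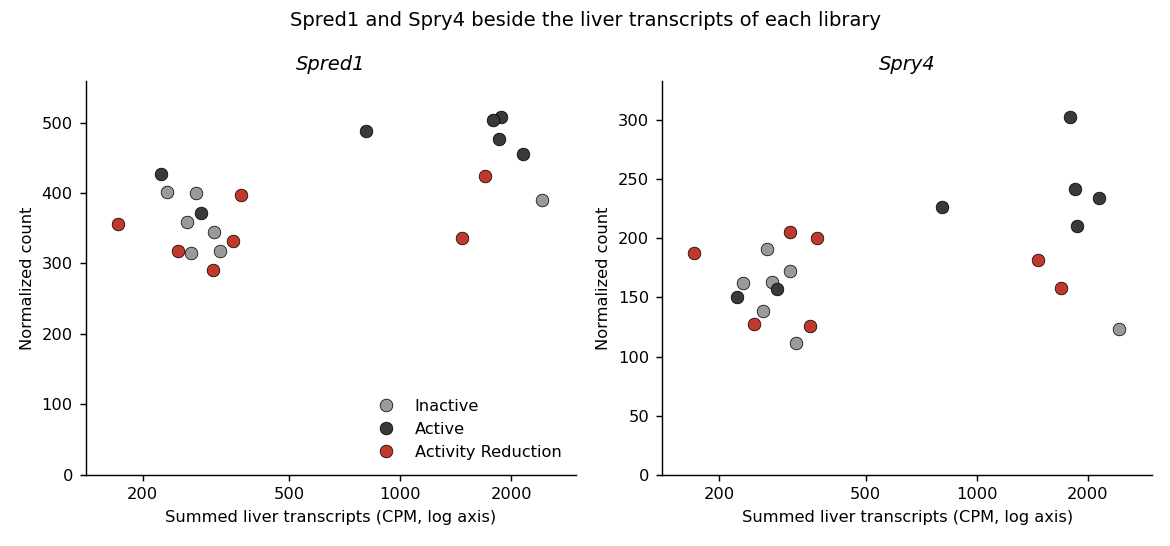
Normalized count of Spred1 and Spry4 (vertical axes, starting at 0) against the summed CPM of 24 liver transcripts in the same library (horizontal log axis), with 1 point per mouse colored by group. The 5 Active mice at 808 CPM or more had Spred1 counts of 455 to 508 and Spry4 counts of 210 to 303, above the 3 mice of the other groups on that side.

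Spred2 is the paralog of Spred1 and is widely expressed. Its lowest, median and highest normalized counts were 256, 329 and 364 for Inactive, 283, 357 and 409 for Active and 270, 313.3 and 378 for Activity Reduction mice. The groups overlapped over most of their range. Its log2 fold change had the sign of that of Spred1 but a smaller size, with 0.14 (SE 0.0951) for Active against Inactive and −0.14 (SE 0.0953) for Activity Reduction against Active, and it shrank to 0.03 (SE 0.101) and −0.06 (SE 0.0961) when the model included the liver division.

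Spred3 lacks the functional Kit-binding domain of Spred1 and Spred2. It was the lowest of the 8 genes per kb. It ranged from 61.1 to 84.9 normalized counts for Inactive, from 59.9 to 121 for Active and from 52.6 to 103 for Activity Reduction mice. The value of 121 belonged to Active replicate 3, and the next Active library had 84.9. The log2 fold change of 0.14 (SE 0.154) for Active against Inactive was 0.02 without that library, and the differences were smaller than the spread between mice in each comparison.

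Among the Sprouty genes, Spry4 had the largest difference. Sprouty-4 inhibits signaling from FGF and VEGF receptors. Its normalized count was 210.35, 226, 303, 234, 242, 150.4 and 158 in Active replicates 1 to 7, against 111, 162 and 191 as the lowest, median and highest of the Inactive group and 126, 182 and 205 in the Activity Reduction group. Active replicates 1 to 5 lay above each library of the other groups, and Active replicates 6 and 7 lay inside the Inactive range. The means were 152 ± 28.3, 218 ± 52.2 and 169 ± 33.0 in the Inactive, Active and Activity Reduction groups (SD, n = 7 each). The Active mean was 43.5% above the Inactive mean (log2 fold change 0.53, SE 0.158) and the log2 fold change of Activity Reduction against Active was −0.36 (SE 0.158).

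The 5 high Active libraries for Spry4 are those with more liver transcripts. The Inactive library on that side had 123 and the Activity Reduction libraries had 158 and 182. Over the 13 libraries with fewer liver RNAs, the log2 fold change was −0.02 (SE 0.220) for Active against Inactive and 0.13 (SE 0.227) for Activity Reduction against Active, with only 2 Active mice in the fit. With the division as a covariate it was 0.41 (SE 0.185) and −0.27 (SE 0.172). With 1 Inactive mouse on one side and 2 Active mice on the other, neither side alone gives a firm value. Leaving out single libraries gave 0.43 to 0.60 and −0.43 to −0.26. Whether the division alters the difference was not tested.

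Spry1, the most abundant of the genes, was lowest in the Activity Reduction group and did not stand out in the Active group. Its lowest, median and highest normalized counts were 690, 706 and 897 for Inactive, 692, 788 and 885 for Active and 624, 681 and 736 for Activity Reduction mice. All 7 Activity Reduction libraries were below the Active median, and 5 of the 7 Active libraries were above each Activity Reduction library. The log2 fold change was −0.21 (SE 0.0662) for Activity Reduction against Active and −0.13 (SE 0.0660) for Activity Reduction against Inactive, and 0.08 (SE 0.0660) for Active against Inactive. Over the 13 libraries with fewer liver RNAs, these were −0.16 (SE 0.102), −0.19 (SE 0.0744) and −0.03. Leaving out single libraries gave −0.24 to −0.18 and −0.16 to −0.09 for the comparisons with Activity Reduction. The slow fibre markers given above were also lowest in that group. Fibroblast (7 genes) and adipocyte (6 genes) markers had 0 higher in Activity Reduction against Inactive and against Active. Satellite cell markers (4 genes) had 3 higher in each, with medians of 0.13 and 0.18. Of these, 2 and 1 had an unadjusted p under 0.05 by edgeR, beside 7.73% and 13.3% of all genes. The part of these cell types in the Spry1 values was not tested.

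Spry2 was nearly level across the groups. Its means were 429 ± 19.4, 441 ± 52.6 and 445 ± 35.5 normalized counts in the Inactive, Active and Activity Reduction groups, and no log2 fold change exceeded 0.06 in size (SE 0.0699 to 0.0701). The Active group was the most spread, from 353 to 517, and held both the lowest and the highest library of the 21. Over the 13 libraries with fewer liver RNAs, the log2 fold change was −0.13 (SE 0.106) for Active against Inactive.

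Over all libraries, the ERK phosphatases showed no difference between groups beyond the spread between mice. Dusp6 had lowest, median and highest normalized counts of 330.3, 389.5 and 555 for Inactive, 286, 417 and 580.5 for Active and 268, 434 and 640.1 for Activity Reduction mice. Its log2 fold changes were 0.10 (SE 0.182) for Active against Inactive and −0.09 (SE 0.182) for Activity Reduction against Active. Over the 13 libraries with fewer liver RNAs, they were −0.32 (SE 0.232) and 0.47 (SE 0.238), opposite in sign. Among the libraries with more liver transcripts, the 5 Active mice had 409 to 580.5, above the Inactive mouse with 334 and the Activity Reduction mice with 268 and 277, which are log2 ratios of means of 0.52 and −0.82. Dusp6 thus differed in opposite directions on the sides of the division, which was not tested, and its fold changes were, in the model with the division 0.22 (SE 0.215) and −0.19 (SE 0.207).

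Dusp4 was the most variable. It had 63.3, 71.3, 79.1, 74.9, 48.7, 35.9 and 36.5 normalized counts in Inactive replicates 1 to 7, from 37.6 to 68.3 in the Active group, and 53.3, 68.1, 108.5, 33.6, 25.7, 24.2 and 33.7 in Activity Reduction replicates 1 to 7. Activity Reduction replicate 3 was the highest of all 21 libraries, while 4 mice of that group lay below each Inactive and each Active library. The log2 fold change of Activity Reduction against Inactive was −0.23 (SE 0.289), and −0.56 without replicate 3. Against Active it was −0.09 (SE 0.292), and −0.41 without it.

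Activity Reduction replicate 3 was also the highest of its group for Dusp6 (640.1), Spry2 (512) and Spred2 (378). The immediate early gene Fos, induced by ERK within minutes of stimulation, had 1873 normalized counts in that library and at most 171 in the other 6 of its group. Dusp1, the phosphatase of an early stress response, was highest in the same library, with 7175, and so was Jun, with 6289. The library held 171 CPM of liver transcripts, the lowest of the 21. Spry4 (188) and Spred1 (357) were not the highest of the group there.

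**Figure D3:**
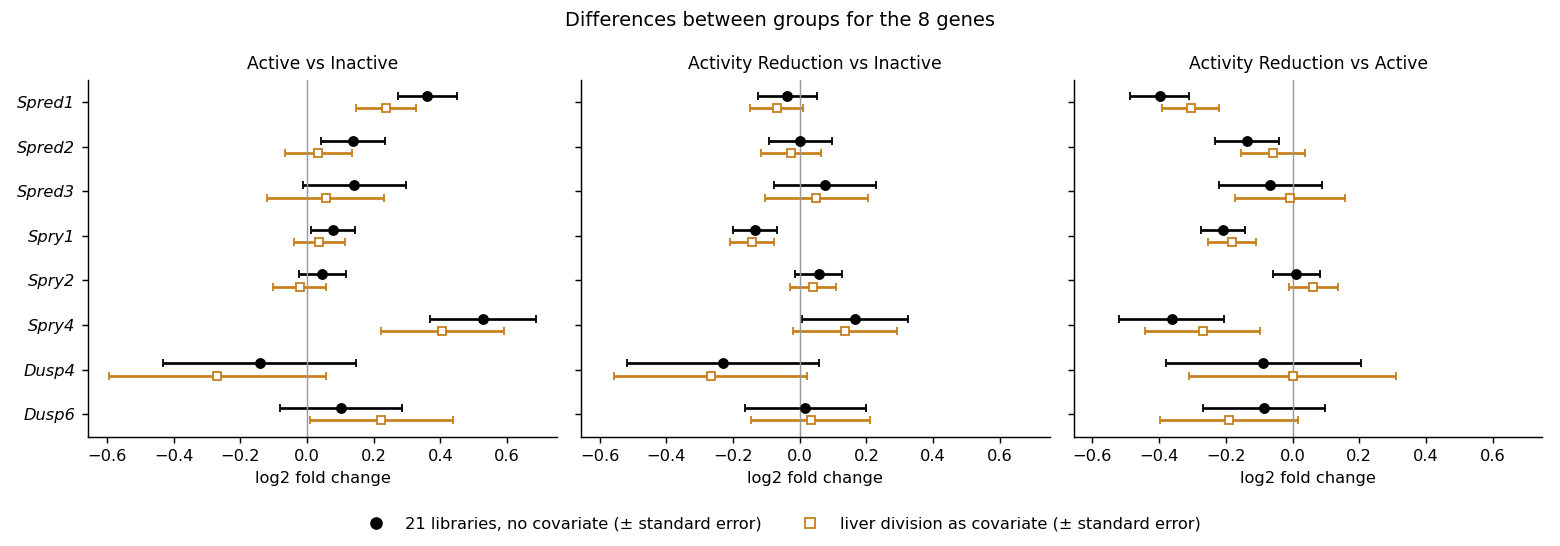
log2 fold change (horizontal axes) of the 8 genes in the 3 comparisons, with bars for ± 1 standard error, from edgeR over 21 libraries without a covariate (filled circles) and with the liver division in the model (open squares). Spred1 and Spry4 lie farthest from 0 in both comparisons with the Active group, at 0.36 and 0.53 and at −0.40 and −0.36, and the covariate brings each closer to 0.

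The calls for these genes used the contrasts by which the set was chosen, so nothing is read from them. In edgeR's quasi-likelihood test over 16129 genes, a gene was called at a Benjamini-Hochberg adjusted p under 0.05 and a log2 fold change beyond 0.25 in size. By this rule 0 of the 8 genes were called in each comparison, beside 0% of all genes for Active against Inactive, 0.0124% (Kcnj11 and Smyd2) for Activity Reduction against Inactive and 0% for Activity Reduction against Active. At an unadjusted p under 0.05 there were 2 (Spred1 and Spry4, both higher), 0 and 3 (Spred1, Spry1 and Spry4, all lower), beside 10.9%, 7.73% and 13.3% of all genes. The 0 depended on the fit. Spry1 was under 0.05 there in DESeq2 on the 3 groups and in edgeR with the liver covariate. DESeq2 on the 3 groups called Spred1 alone of the 8 for Active against Inactive, beside 0.442% of the genes it tested, none for Activity Reduction against Inactive, beside 0.254%, and Spred1 alone for Activity Reduction against Active, beside 0.864%. For none of the 8 genes did the libraries of a pair of groups fail to overlap, beside 0.254%, 0.118% and 0.291% of all genes in the same order of comparisons.

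The genes were also compared with one another by their deviations from the group means across the 21 libraries. The points share library depth and tissue makeup, so the correlations are descriptions. The highest were between Spred2 and Spry2 (Pearson r 0.61, Spearman rho 0.60) and between Spry4 and Dusp6 (r 0.60, rho 0.68). With deviations taken within both the group and the liver division, r was 0.59 and 0.63. Spred1 and Spred2 had r 0.48, which was 0.31 within the division, and Spred1 and Spry4 had 0.31 and 0.10. The lowest was between Spred3 and Dusp4, with r −0.38.

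The 5 genes with profiles most like that of Spred1 over the 21 libraries, by Pearson r of log2 normalized counts, were Gnai3 (0.85), Denn2b (0.82), Tagln2 (0.80), Ptprk (0.80) and Gimap6 (0.79). Gnai3 encodes an inhibitory G protein subunit, and Ptprk a receptor protein tyrosine phosphatase. By deviations from the group means they were Gnai3 (0.84), Lrrc75a (0.84), Denn2b (0.81), LOC118568113 (0.78) and Pbld2 (0.76). Within both group and liver division, Denn2b kept 0.82, Gnai3 0.76 and Tagln2 0.57, and Gimap6 had 0.37. For the other genes, the closest by deviations were Lima1 for Spred2 (0.83), Rtkn2 for Spred3 (0.76), Fto for Spry1 (0.81), Adamts1 for Spry2 (0.77), Arrdc4 for Spry4 (0.79), Cipc for Dusp4 (0.77) and Cep170 for Dusp6 (0.84). With 21 libraries and 16129 genes compared, these are the most alike of many.

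The pathway around these brakes was described with 121 other genes in 6 roles, of which 115 passed the filter on low counts. None was called by edgeR in any comparison. At an unadjusted p under 0.05 there were 13 (12 higher and 1 lower) for Active against Inactive, 11 (8 higher and 3 lower) for Activity Reduction against Inactive and 13 (5 higher and 8 lower) for Activity Reduction against Active. These are 11.3%, 9.57% and 11.3% of the genes tested, near the 10.9%, 7.73% and 13.3% of all genes. Over all genes, 6.18% were higher and 4.69% lower at that level in Active against Inactive, 4.19% and 3.54% in Activity Reduction against Inactive, and 6.89% and 6.44% in Activity Reduction against Active. The list's median log2 fold change was 0.07, 0.03 and −0.04, beside 0.01, 0.01 and 0.00 over all genes.

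Of the ligands, the 4 genes with the smallest p were Pdgfa, Fgf7, Igf1 and Fgf1. Igf1, the growth factor best known for muscle growth, had 338 ± 107 normalized counts in the Inactive group and 494 ± 185 in the Active group (SD, n = 7), a log2 fold change of 0.55 (SE 0.251, adjusted p = 0.436 by edgeR with Benjamini-Hochberg adjustment). With liver division in the model it was −0.04 (SE 0.147), and the part of the division in the difference was not tested. Pdgfa, a mitogen of mesenchymal cells, had a log2 fold change of 0.16 (SE 0.0591) and Fgf1 of −0.19 (SE 0.0855) for Activity Reduction against Inactive. Fgf7, which signals through a form of Fgfr2, had −0.35 (SE 0.146) for Activity Reduction against Active.

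Of the 18 receptors, 16 had a positive log2 fold change in Active against Inactive, with a median of 0.23, and 6 of them had an unadjusted p under 0.05, or 33.3% beside 10.9% of all genes. The 6 were Kdr, Fgfr2, Fgfr4, Flt4, Egfr and Met. In that comparison 51.6% of all genes had a positive value, and so did 84 of the 115 tested genes of the whole list. When the model included the liver division, 15 of 18 receptors and 83 of the 115 list genes were positive. Of the receptors, 1 had an unadjusted p under 0.05, beside 8.51% of all genes in that model. In the 13 libraries with fewer liver transcripts, 13 of 18 receptors were positive and 0 had such a p. Kdr, the main VEGF receptor of endothelial cells, had the smallest p of the list. Its lowest, median and highest normalized counts were 1244, 1742 and 2303 for Inactive, 1608, 2138 and 2220.1 for Active and 1300.02, 1524 and 1789 for Activity Reduction mice. The Active and Activity Reduction groups overlapped only by the lowest Active library. The log2 fold change of Activity Reduction against Active was −0.42 (SE 0.103), with an adjusted p of 0.112 in edgeR and of 0.0103 in DESeq2 on the 3 groups, and it was −0.37 (SE 0.109) with the liver covariate. Endothelial markers, given above, had a median of −0.07 in that comparison. Of these 9 genes 1 was higher, and 3 were lower at an unadjusted p under 0.05 by edgeR, beside 13.3% of all genes. With the liver covariate their median was −0.13, and 2 were lower at such a p, beside 10.7% of all genes. The part of endothelial makeup in the Kdr values was not tested. Fgfr2 was sparsely counted, with means of 13.2 ± 6.48 and 27.7 ± 15.2 in the Inactive and Active groups, and its log2 fold change was 1.06 (SE 0.399), or 0.44 (SE 0.420) with liver division in the model. Flt4, the VEGF receptor of lymphatic endothelium, had a log2 fold change of 0.33 (SE 0.126), and Met, the HGF receptor, of 0.10 (SE 0.0432), for Active against Inactive.

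The adaptors and the kinases of the core differed little. Sos1, an exchange factor for Ras, had a log2 fold change of −0.15 (SE 0.0504, adjusted p = 0.445 by edgeR) and Ptpn11, the phosphatase SHP2, of 0.10 (SE 0.0411) for Activity Reduction against Inactive. For Active against Inactive, Rasgrp3, another exchange factor for Ras, had 0.17 (SE 0.0623) and the adaptor Gab2 had 0.19 (SE 0.116). Map2k2 and Map2k1, which encode MEK2 and MEK1, had log2 fold changes of 0.20 (SE 0.0568) and 0.11 (SE 0.0341) for Activity Reduction against Active. Their adjusted p in edgeR was 0.154 and 0.183. With liver division in the model, the log2 fold changes were 0.19 (SE 0.0621) and 0.11 (SE 0.0395). For Activity Reduction against Inactive, Map2k2 had 0.18 (SE 0.0568, adjusted p = 0.445 by edgeR) and Map2k1 had 0.05 (SE 0.0340). Araf (−0.07, SE 0.0313) and Nras (−0.12, SE 0.0617) had small negative values in Active against Inactive.

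Of 26 other brakes tested, 2 had an unadjusted p under 0.05 for Active against Inactive, 1 for Activity Reduction against Inactive and 2 for Activity Reduction against Active. These are 7.69%, 3.85% and 7.69%, below the 10.9%, 7.73% and 13.3% of all genes. Dusp8 (log2 fold change 0.27, SE 0.0905) and Dusp16 (0.15, SE 0.0687), phosphatases that act mainly on JNK and p38, were those of Active against Inactive. Dusp1 had 0.31 (SE 0.130) for Activity Reduction against Inactive, and Cav1, the main protein of caveolae, −0.12 (SE 0.0501) for Activity Reduction against Active. None of these passed adjustment in edgeR, where the smallest adjusted p of the role was 0.311, 0.592 and 0.306 in the 3 comparisons.

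The role of targets mixes genes induced by ERK, such as Fos, with genes of proteins that ERK acts on, such as Elk1 and Rps6ka1. ERK activity was not measured. Of 23 targets of ERK tested, 2 (both higher), 4 (3 higher) and 7 (2 higher) had an unadjusted p under 0.05 in the 3 comparisons. These are 8.70%, 17.4% and 30.4%, beside 10.9%, 7.73% and 13.3% of all genes. The 7 of Activity Reduction against Active were Fos and Etv1 (higher) and Etv5, Ets1, Elk1, Egr2 and Rps6ka1 (lower). Adding the liver division to the model gave 4 in that comparison (1 higher), beside 10.7% of all genes in that model, and in the 13 libraries with fewer liver transcripts 0. Rps6ka1, an ERK-activated kinase, had means of 415 ± 55.8, 372 ± 47.1 and 314.1 ± 56.1 normalized counts in the Inactive, Active and Activity Reduction groups (SD, n = 7), and a log2 fold change of −0.40 (SE 0.109, adjusted p = 0.331 by edgeR) for Activity Reduction against Inactive. Etv1 had 0.28 (SE 0.108) and Jun 0.34 (SE 0.108) in that comparison. Fos had a log2 fold change of 1.68 (SE 0.685) for Activity Reduction against Active, but its group medians were 94.6, 102 and 97.2 normalized counts in the Inactive, Active and Activity Reduction groups. With liver division in the model its fold change was 0.62 (SE 0.811). The difference in its mean rests on Activity Reduction replicate 3.

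**Figure D4:**
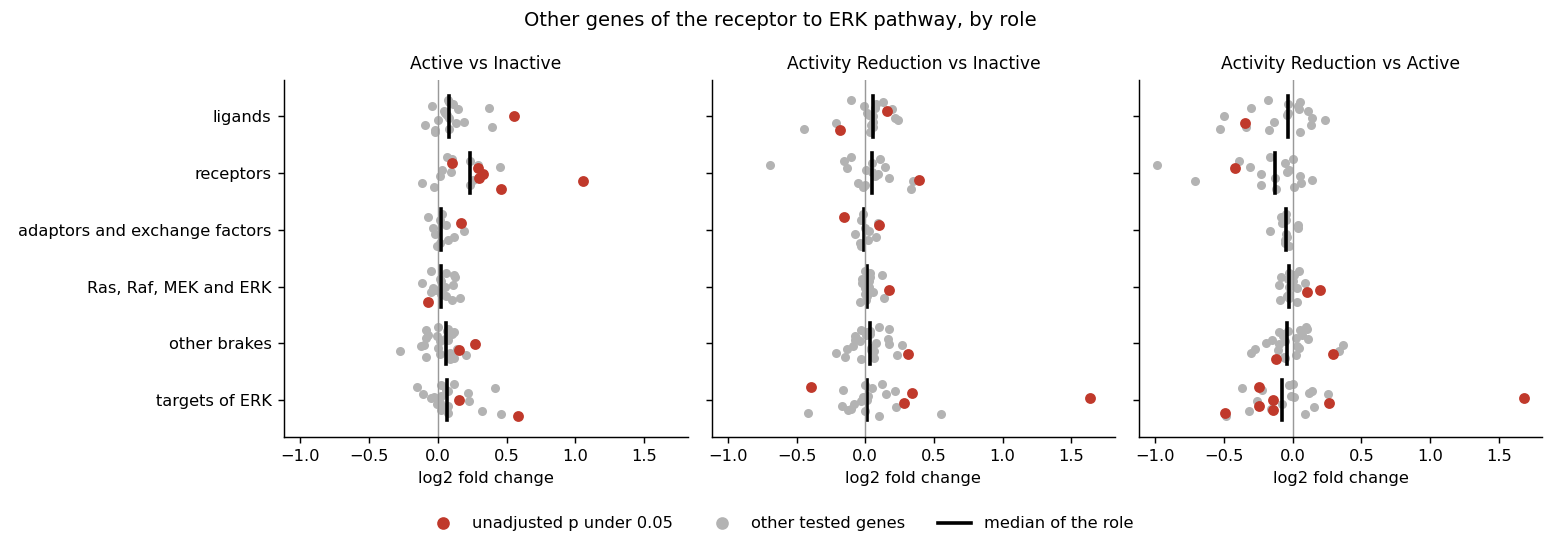
log2 fold change (horizontal axes) of the 115 tested genes of the pathway other than the 8 brakes, by role and comparison, with red points for an unadjusted p under 0.05 in edgeR and black bars for the median of the role. The receptors lie to the right of 0 for Active against Inactive (16 of 18, beside 84 of the 115 genes). The lone target near 1.68 for Activity Reduction against Active is Fos.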

How the data were processed

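Poly(A) RNA of the medial gastrocnemius of 21 mice was sequenced. According to the methods and the submitters' processing notes, the authors used fastp for trimming, STAR for alignment to GRCm39 and featureCounts for counting. Tool versions, the annotation and the strand setting are not given in the sources used here. The deposited values were raw counts for 40853 genes. Another table, labelled as normalized, was identical in all 857913 values and was not used. Counts were divided by DESeq2 size factors (DESeq2 1.42.0) for display. Groups were compared in 1 edgeR quasi-likelihood model (edgeR 4.0.16, R 4.3.3) of the 21 libraries after TMM normalization and filterByExpr, with Benjamini-Hochberg adjustment over 16129 genes. The test was run on simulated data with 200 changed genes before use.

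The genes, the lists of pathway and marker genes, and the tests were chosen with earlier results of these data known. Named pathway genes are the 4 of each role with the smallest unadjusted edgeR p in any comparison. The other genes at an unadjusted p under 0.05 among receptors and targets were named after their values were seen. Libraries were divided at the largest gap in the log2 summed CPM of 24 liver genes. Alternatives were DESeq2, fits on the groups compared, DESeq2 size factors in edgeR, no filter on low counts, the liver division as a covariate, a replicate block, and leaving out each library. Mice were separate animals, and each is 1 replicate.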

Additional observations from a re-analysis of the deposited data

Results flagged for a closer look

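In 24 groups of 7 libraries (8 genes in 3 groups), 1 group held a library that stood apart from the rest by Dixon's test. Spred3 had 121 normalized counts in Active replicate 3, and the nearest library of that group had 84.9. Chance marks about 1 in 20 such groups. Without this library the log2 fold change of Spred3 for Active against Inactive was 0.02 in place of 0.14.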

How the results depend on the processing

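The log2 fold changes of the 8 genes were recomputed under 8 alternatives, and 168 of 168 values from the 7 planned ones stayed within the SD of single mice on the log2 scale, a wide measure for a difference of means: Spred1 for Active against Inactive still went from 0.36 to 0.24 with the liver covariate. On the 13 libraries with fewer liver transcripts, an alternative chosen after seeing the data, 7 of 24 moved: Spred1 (0.17), Spry2 (−0.13), Spry4 (−0.02) and Dusp6 (−0.32) for Active against Inactive, and Spry2 (0.17), Spry4 (0.13) and Dusp6 (0.47) for Activity Reduction against Active. Only 2 Active libraries enter that fit. Over all 192 values, 17 changed sign. Leaving out single libraries moved none of 504 values by more than that SD, and 23 changed sign. For all genes, edgeR called 0, 2 and 0 transcripts for Active against Inactive, Activity Reduction against Inactive and Activity Reduction against Active. In the same order, DESeq2 called 58, 22 and 118 on the 3 groups and 74, 44 and 135 on the 2 groups compared, and edgeR on the 2 groups called 3, 0 and 0. DESeq2 size factors in edgeR gave 0, 0 and 1, the liver covariate 0, 1 and 0, and the 13 libraries 0, 0 and 0. Leaving out single libraries gave 0 to 1, 0 to 6 and 0 to 9, the highest without Active replicate 6 or Inactive replicate 7, without Active replicate 3, and without Activity Reduction replicate 7. The cause was not tested. Of the pathway list, 0 genes were called by edgeR, 0 to 0 with single libraries left out, and 1 (Kdr) by DESeq2 on the 3 groups and 1 on the 2 groups for Activity Reduction against Active, with an adjusted p of 0.0103 and 0.00048. The replicate block gave 0, 4 and 0 transcripts and 0 of the list. The replicate numbers share only a number: over 21 pairs the correlation of deviations ran from −0.23 to 0.44, 7 exceeded 0.1, and in 5 of the 21 the best match had the same number. The 3 pairs of number 1, whose libraries all hold more liver transcripts, had 0.24, 0.44 and 0.31. Dusp4 and Spred3, with as few as 23 and 45 counts, are the genes that depth limits most.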
